A study of Mus musculus with 14 samples.

Results

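The Reg genes encode small secreted C-type lectins of the pancreas and gut, and their expression was compared array by array in islets of 3 genotypes. All 7 members asked for (Reg1, Reg2, Reg3a, Reg3b, Reg3d, Reg3g and Reg4) were found by symbol among the 19938 genes of the array, each on 1 transcript cluster, the set of probes that reports 1 gene. The islets came from untreated 11-week-old mice of a C57BL/6 and NMRI mixed background, on 14 Affymetrix Mouse Gene 1.0 ST arrays. There were 5 arrays of control mice, whose alleles the labels do not detail. The 4 Pdx-1+/- arrays came from mice carrying the driver allele Pdx-1-tTA, which makes them haploinsufficient for Pdx-1, a transcription factor of β-cells. The 5 arrays of IKK2-CApdx-1 mice (here IKK2-CA) came from diabetic animals in which that same driver expresses constitutively active IKK2, an activating kinase of NF-κB, in β-cells. Driver allele and Pdx-1 haploinsufficiency are thus shared by Pdx-1+/- and IKK2-CA mice, and in IKK2-CA mice active IKK2 and diabetes cannot be told apart. Nothing in the labels tells if an array holds 1 mouse or pooled mice, so the p-values measure the spread between arrays, which may be technical.

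In the mouse pancreas Reg proteins are made mainly by acinar cells and are released with the digestive enzymes. Their genes are known as responders to pancreatitis, to interleukin-6 and interleukin-22 signalling through STAT3, and to islet injury. Reg3b and Reg3g also act as antibacterial lectins of the intestinal lining, and Reg4 belongs to secretory cells of the gut. Islets are picked by hand or gradient from digested pancreas, and acinar tissue can come with them.

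Values are log2 signals made by the robust multichip average (RMA), so a difference of 1 is a doubling. They compare arrays for the same gene and do not rank genes by their amount of RNA. Places among all genes, where given, are those of the signal. The highest signal of an array was 13.85 to 13.96 and the lowest 2.16 to 2.29. Pdx1 read 8.23 ± 0.39 (SD, n = 5) in control, 7.14 ± 0.21 (SD, n = 4) in Pdx-1+/- and 6.67 ± 0.55 (SD, n = 5) in IKK2-CA islets. Ikbkb, the gene of IKK2, read 7.43, 7.41 and 7.68, and no source used here says if its probes see the transgene. The islet hormone genes Ins2, Iapp, Gcg and Sst read 12.31 to 12.68, 12.76 to 13.34, 12.88 to 13.36 and 11.61 to 12.78 over all arrays. Arrays of other tissue content stood apart in 3 cases. Sis, the sucrase of enterocytes, read 9.16 on Pdx-1+/- array 4 and 6.05 on control array 3 against 3.18 to 3.45 on the others, and Adipoq, an adipocyte hormone, read 10.60 on IKK2-CA array 5 against 5.13 to 7.38. The differences between genotypes are also given without these 3 arrays where their size moves most.

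Several Reg genes varied widely between arrays of the same genotype, and none passed a test between genotypes. Reg3a, Reg3g and Reg3b had the 3 widest spreads within groups of all 19938 genes, with pooled standard deviations of 2.13, 1.90 and 1.77 log2. Reg2 (1.39) ranked at 15 and Reg3d (0.77) at 131. The median gene had a standard deviation of 0.169, and 99 in 100 genes lay under 0.695. Reg4 (0.49) ranked at 706, and Reg1 (0.10), near the top of the scale, at 17571. Without the 3 arrays that stand apart, Reg3a, Reg3g and Reg3b still held ranks 1, 2 and 3, while Reg4 dropped to rank 6590.

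**Figure D1:**
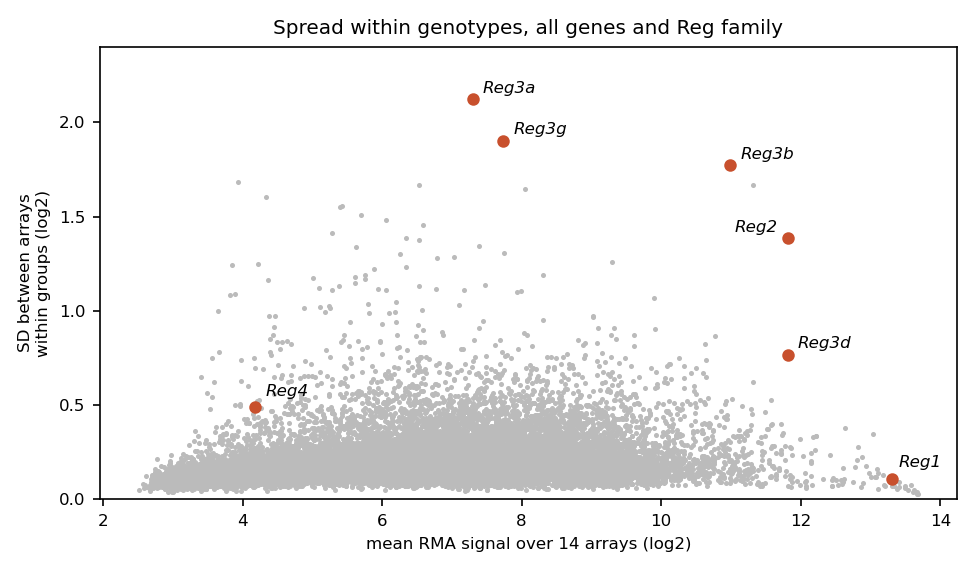
Each grey point is 1 of 19938 genes, with its mean signal over the 14 arrays (log2) on the horizontal axis and its pooled standard deviation between arrays of the same genotype (log2) on the vertical axis, and orange points are the Reg genes. Reg3a (2.13), Reg3g (1.90) and Reg3b (1.77) lie above every other gene, and Reg1 (0.10) lies at the lower right.

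Reg3a, a secreted lectin that is induced in inflamed pancreas, stood above 25.7 in 100 genes on its lowest array and above 99.1 in 100 on its highest. Control arrays 1 to 5 read 6.59, 5.70, 6.28, 5.95 and 9.16. Pdx-1+/- arrays 1 to 4 read 9.61, 5.00, 5.72 and 6.12. IKK2-CA arrays 1 to 5 read 11.12, 8.19, 11.20, 5.74 and 5.78. The signals fell into a low set of 9 arrays, up to 6.59, and a high set of 5 arrays, from 8.19, and each genotype had arrays in both. The high set was itself spread out, from 8.19 to 11.20. The distance from the lowest to the highest array was 73.4-fold.

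Reg3g, the bactericidal lectin of the gut lining, had the widest range of the family, 92.8-fold. Control arrays 1 to 5 stood at 6.79, 6.24, 6.67, 5.66 and 8.63, and Pdx-1+/- arrays 1 to 4 at 9.92, 5.23, 6.85 and 8.38. On IKK2-CA arrays 1 to 5 the signal was 11.77, 7.78, 10.88, 6.97 and 6.53. IKK2-CA arrays 1 and 3 lay above all arrays of the other genotypes, and the other three lay within the range of Pdx-1+/- arrays.

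Reg3b, the pancreatitis-associated protein, spanned 28.2-fold. Control arrays 1 to 5 gave 11.99, 11.25, 9.90, 9.61 and 12.24. Pdx-1+/- arrays 1 to 4 gave 12.80, 8.21, 11.50 and 10.85. IKK2-CA arrays 1 to 5 gave 12.98, 11.64, 13.03, 9.34 and 8.46. High and low arrays occurred in every genotype, and all 5 control arrays lay within the range of Pdx-1+/- arrays and within that of IKK2-CA arrays.

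Reg2, a lithostathine also known from regenerating islets, followed a like order of arrays. Its control signals were 12.63, 12.34, 11.74, 10.28 and 12.74 on arrays 1 to 5. Pdx-1+/- signals were 12.84, 10.45, 12.38 and 12.24 on arrays 1 to 4, and IKK2-CA signals 13.05, 12.58, 13.10, 9.73 and 9.37 on arrays 1 to 5. IKK2-CA islets thus held both the 2 highest and the 2 lowest signals of the 14.

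Reg3d, a member related to the islet neogenesis protein INGAP of hamster, moved over a narrower range, 6.26-fold. It read 11.94, 11.54, 11.61, 11.02 and 12.37 on control arrays 1 to 5, 12.28, 11.29, 11.35 and 11.91 on Pdx-1+/- arrays 1 to 4, and 12.77, 12.47, 13.01, 11.45 and 10.36 on IKK2-CA arrays 1 to 5. The 3 highest arrays and the lowest array were all of IKK2-CA islets.

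Reg1, the main lithostathine of acinar juice, lay at 13.26 to 13.37 on control arrays, 13.28 to 13.38 on Pdx-1+/- arrays and 13.05 to 13.46 on IKK2-CA arrays. It stood above 99.9 in 100 genes on every array, close to the top of the scale, where differences are compressed. Reg4, the gut member, lay at the other end. It read 3.77 to 4.40 on the 5 control arrays, 4.05 to 4.10 on Pdx-1+/- arrays 1 to 3, 5.79 on Pdx-1+/- array 4 and 3.89 to 4.23 on the 5 IKK2-CA arrays. On all arrays but Pdx-1+/- array 4 (37.6 in 100) it exceeded the signal of only 10.7 to 17.1 in 100 genes, near the floor of the array.

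**Figure D2:**
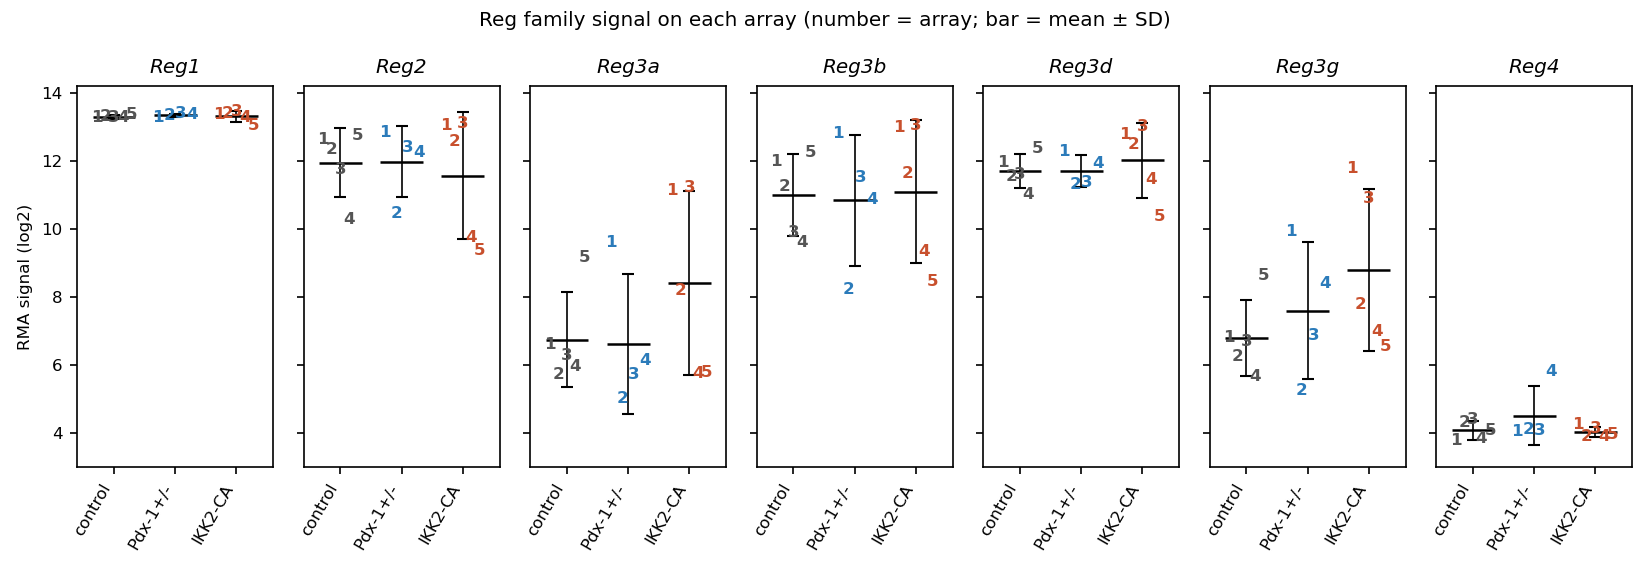
Each panel shows 1 Reg gene, with the RMA signal (log2) on the vertical axis and the 3 genotypes on the horizontal axis. Numbers are arrays, and bars are the group mean ± SD (n = 5, 4 and 5). Reg3a, Reg3g, Reg3b and Reg2 spread widely in each genotype. Over all arrays Reg3a runs from 5.00 to 11.20, while Reg1 stays between 13.05 and 13.46.

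The same arrays were high for 5 of the 7 genes. Control array 5, Pdx-1+/- array 1 and IKK2-CA arrays 1 and 3 were among the 5 highest arrays for each of Reg2, Reg3a, Reg3b, Reg3d and Reg3g. Pdx-1+/- array 2 and IKK2-CA array 5 were among the 5 lowest for each. Over the 14 arrays Reg2 and Reg3b had a Pearson r of 0.927 (permutation p = 1e-05, the smallest that 100000 permutations give, adjusted p = 0.000187) and a Spearman rho of 0.974 (permutation p = 1e-05, adjusted p = 0.00056). With group means removed r was 0.948, and without the 2 arrays farthest from the Reg2 median it was 0.934. Reg3b and Reg3d had an r of 0.857 (permutation p = 0.00011, adjusted p = 0.00103) and a rho of 0.886 (permutation p = 0.00012, adjusted p = 0.00224), with r at 0.829 without the 2 farthest arrays. Reg3b and Reg3g had an r of 0.793 (permutation p = 0.00087, adjusted p = 0.00443) and a rho of 0.815 (permutation p = 0.00083, adjusted p = 0.00516), with r at 0.781 likewise. For Reg3d and Reg3g, r was 0.821 (permutation p = 0.00022, adjusted p = 0.00176) and rho 0.842 (permutation p = 0.00031, adjusted p = 0.00289), and r was 0.865 without the 2 farthest arrays. Permutation tests were two-sided, with Benjamini-Hochberg adjustment across 56 relations, 21 between members and the rest with gene lists. Reg1 and Reg3d had an r of 0.784 (permutation p = 0.00077, adjusted p = 0.00431) and a rho of 0.653 (permutation p = 0.0139, adjusted p = 0.0597), but r was 0.49 without the 2 farthest arrays, so this relation rests on IKK2-CA arrays 3 and 5. With members other than Reg3a, Reg4 had r between 0.0329 and 0.222 and rho between 0.0901 and 0.345 (permutation, adjusted p = 0.578 to 0.981). No r is given for Reg3a, whose signals lie in a low and a high set. Its rho was 0.78 with Reg2, 0.833 with Reg3b, 0.859 with Reg3d and 0.824 with Reg3g (permutation, adjusted p = 0.0028 to 0.00857). With Reg1 the rho of Reg3a was 0.354 (permutation, adjusted p = 0.578), and with Reg4 it was 0.0154. Whether probes of a member also capture RNA of its close relatives was not tested.

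**Figure D3:**
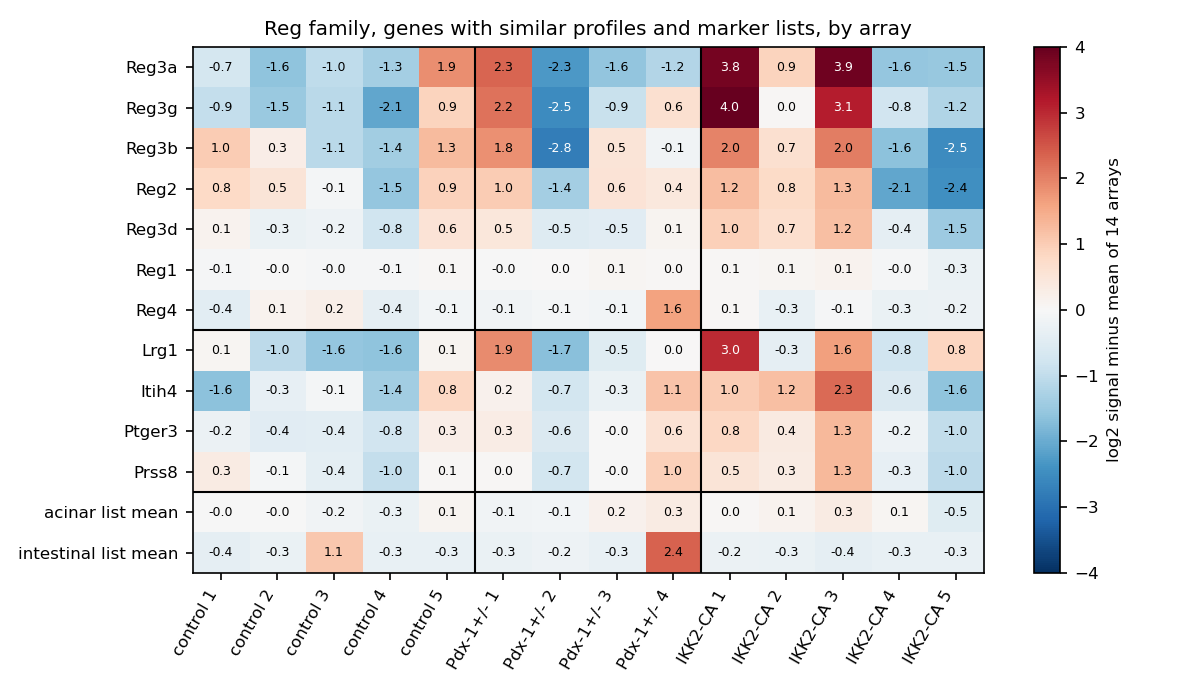
Rows are the Reg genes, 4 genes of similar profile and the means of the acinar and intestinal marker lists, columns are the 14 arrays, and colour and number give the log2 signal minus the mean of the 14 arrays. Control array 5, Pdx-1+/- array 1 and IKK2-CA arrays 1 and 3 are red for the upper 5 Reg genes, and Reg4 is high on Pdx-1+/- array 4 as the intestinal list is (2.36).

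Of the 7 genes, 6 lie side by side on mouse chromosome 6 with no other protein-coding gene between them in the RefSeq order (Reg3b, Reg3d, Reg3a, Reg2, Reg1, Reg3g), and Reg4 lies on chromosome 3. The promoters of the 5 genes that varied together are shown because their letters can be read against that shared pattern. They run from 250 bases before to 50 after the gene's start, from RefSeq on GRCm38.p6, 5′ to 3′. Capitals mark matches, on either strand, to the STAT palindrome TTCNNNGAA, to CACCTG and TTTCCCA, the E-box and TC-box bound by the acinar factor PTF1, and to the NF-κB consensus.
Reg3a promoter (chr6:78380459-78380758, plus strand): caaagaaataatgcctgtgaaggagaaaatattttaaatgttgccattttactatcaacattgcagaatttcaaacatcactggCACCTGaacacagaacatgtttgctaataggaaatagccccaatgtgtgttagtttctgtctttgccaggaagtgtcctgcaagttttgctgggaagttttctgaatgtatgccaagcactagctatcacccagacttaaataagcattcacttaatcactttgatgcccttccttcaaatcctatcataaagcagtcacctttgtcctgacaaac
Reg3g promoter (chr6:78468825-78469124, minus strand): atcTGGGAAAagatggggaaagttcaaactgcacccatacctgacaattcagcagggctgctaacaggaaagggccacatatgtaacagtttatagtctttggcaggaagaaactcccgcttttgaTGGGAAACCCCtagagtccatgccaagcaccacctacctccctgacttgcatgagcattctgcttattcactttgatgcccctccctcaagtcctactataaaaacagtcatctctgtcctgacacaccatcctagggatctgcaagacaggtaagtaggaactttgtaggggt
Reg3b promoter (chr6:78370635-78370934, plus strand): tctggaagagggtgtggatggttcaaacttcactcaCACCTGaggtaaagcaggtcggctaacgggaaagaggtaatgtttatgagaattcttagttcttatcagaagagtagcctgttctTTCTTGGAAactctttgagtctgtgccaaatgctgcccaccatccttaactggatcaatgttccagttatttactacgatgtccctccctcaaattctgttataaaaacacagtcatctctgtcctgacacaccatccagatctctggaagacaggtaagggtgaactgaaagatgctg
Reg2 promoter (chr6:78404905-78405204, plus strand): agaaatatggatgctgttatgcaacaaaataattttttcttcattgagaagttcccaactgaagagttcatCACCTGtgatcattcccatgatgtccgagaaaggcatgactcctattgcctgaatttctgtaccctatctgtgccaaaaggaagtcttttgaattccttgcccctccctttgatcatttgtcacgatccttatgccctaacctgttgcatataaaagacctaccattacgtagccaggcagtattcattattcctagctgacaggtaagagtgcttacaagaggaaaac
Reg3d promoter (chr6:78378816-78379115, minus strand): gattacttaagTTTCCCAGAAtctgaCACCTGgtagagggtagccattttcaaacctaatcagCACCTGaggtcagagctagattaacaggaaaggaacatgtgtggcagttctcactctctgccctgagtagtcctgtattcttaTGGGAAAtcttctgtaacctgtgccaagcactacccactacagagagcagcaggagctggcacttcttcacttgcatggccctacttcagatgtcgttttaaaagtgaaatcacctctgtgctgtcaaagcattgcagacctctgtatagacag
CACCTG was present in 5 of the 7 Reg promoters (Reg2, Reg3a, Reg3b, Reg3d and Reg4) and in 20.2% of 32851 promoters of the same length. TTTCCCA was present in 3 (Reg1, Reg3d and Reg3g), against 8.06% of all. The STAT palindrome was present in 2 (Reg3b and Reg3d), against 8.30%, and the NF-κB consensus in 1 (Reg3g), against 4.51%. In Reg3d the STAT match overlaps a TTTCCCA match, and in Reg3g the NF-κB match does. Only Reg3d held both CACCTG and TTTCCCA, and the spacing between them was not examined. All these matches describe the letters of the windows and no binding was measured.

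Active IKK2 in mice of the same driver allele was the first comparison, IKK2-CA against Pdx-1+/- islets, and none of the 7 Reg genes passed. By limma, with p adjusted over all 19938 genes, 0 of 7 passed at 0.05, where 0.0752% of all genes did, and 0 of 7 had an unadjusted p under 0.05. Reg3a had the largest difference. It was 8.40 ± 2.70 (SD, n = 5) against 6.61 ± 2.05 (SD, n = 4), a log2 difference of 1.79 (SE 1.24, 95% interval −0.87 to 4.45, limma adjusted p = 0.879). Reg3g was 8.79 ± 2.38 (SD, n = 5) against 7.60 ± 2.01 (SD, n = 4), a log2 difference of 1.19 (SE 1.11, 95% interval −1.19 to 3.57, limma adjusted p = 0.93). Both intervals include 0 and reach up to rises of several fold, so such a rise could not be told from no change. Reg3b differed by log2 0.25 (95% interval −1.97 to 2.47), Reg3d by 0.30 (−0.66 to 1.27) and Reg2 by −0.41 (−2.15 to 1.33). Reg1 differed by −0.03, with an interval of −0.20 to 0.15. Reg4 differed by −0.49 (−1.11 to 0.14), and without Pdx-1+/- array 4 by −0.06. Without the 3 arrays that stand apart the differences were 2.28 for Reg3a, 2.01 for Reg3g, 0.91 for Reg3b, 0.78 for Reg3d, 0.22 for Reg2, 0.05 for Reg1 and −0.04 for Reg4, and none passed (limma adjusted p = 0.563 to 0.948). None of the 7 genes separated the groups without overlap, as 2.43% of all genes did.

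The comparison of IKK2-CA with control islets takes driver allele, active IKK2 and diabetes together, and it shares the IKK2-CA arrays with the one above. Again 0 of 7 Reg genes passed by limma, against 2.25% of all genes (0.682% higher and 1.56% lower), 0 of 7 had an unadjusted p under 0.05, and none separated the groups, against 4.2% of all genes. Reg3g was 8.79 ± 2.38 (SD, n = 5) against 6.80 ± 1.12 (SD, n = 5), a log2 difference of 1.99 (SE 1.05, 95% interval −0.26 to 4.23, limma adjusted p = 0.399), which is 3.96-fold. Reg3a was 8.40 against 6.74 ± 1.40 (SD, n = 5), a log2 difference of 1.67 (SE 1.17, 95% interval −0.84 to 4.18, limma adjusted p = 0.56). In each gene 2 of 5 IKK2-CA arrays, 1 and 3, lay above every control array. Reg3d (log2 0.32), Reg3b (0.09), Reg1 (0.02), Reg4 (−0.06) and Reg2 (−0.38) had intervals that included 0. Without the 3 arrays the differences were 2.52 for Reg3g, 2.21 for Reg3a, 0.71 for Reg3d, 0.48 for Reg3b, 0.12 for Reg2, 0.08 for Reg1 and 0.04 for Reg4, and none passed (limma adjusted p = 0.361 to 0.966).

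Loss of 1 Pdx-1 copy was the third comparison, Pdx-1+/- against control islets, with the control arrays shared with the comparison above. By limma 0 of 7 passed (0.0953% of all genes passed), 0 had an unadjusted p under 0.05, and 0 separated the groups (1.88% of all genes). Reg3g differed by log2 0.80 (SE 1.11, 95% interval −1.59 to 3.18, limma adjusted p = 0.999), and Reg4 by 0.43 (SE 0.29, 95% interval −0.20 to 1.05, limma adjusted p = 0.999). Reg3b differed by −0.16, Reg3a by −0.12, Reg1 by 0.05, Reg2 by 0.03 and Reg3d by 0.01. Without Pdx-1+/- array 4 the Reg4 difference was −0.0022. Without the 3 arrays Reg3g differed by 0.50, Reg3b by −0.44, Reg2 by −0.11, Reg4 and Reg3d by 0.08 and −0.08, Reg3a by −0.07 and Reg1 by 0.03 (limma adjusted p = 1 each).

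By group mean, Reg3a ran IKK2-CA, control, Pdx-1+/- from highest to lowest, Reg3g ran IKK2-CA, Pdx-1+/-, control, and no neighbours in either order differed beyond their spread. The share of a gene's variance that lay between genotypes was 16.2% for Reg3a, 20% for Reg3g, 18.7% for Reg4, 4.54% for Reg3d, 3.87% for Reg1, 2.30% for Reg2 and 0.397% for Reg3b. The median over all genes was 14%.

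**Figure D4:**
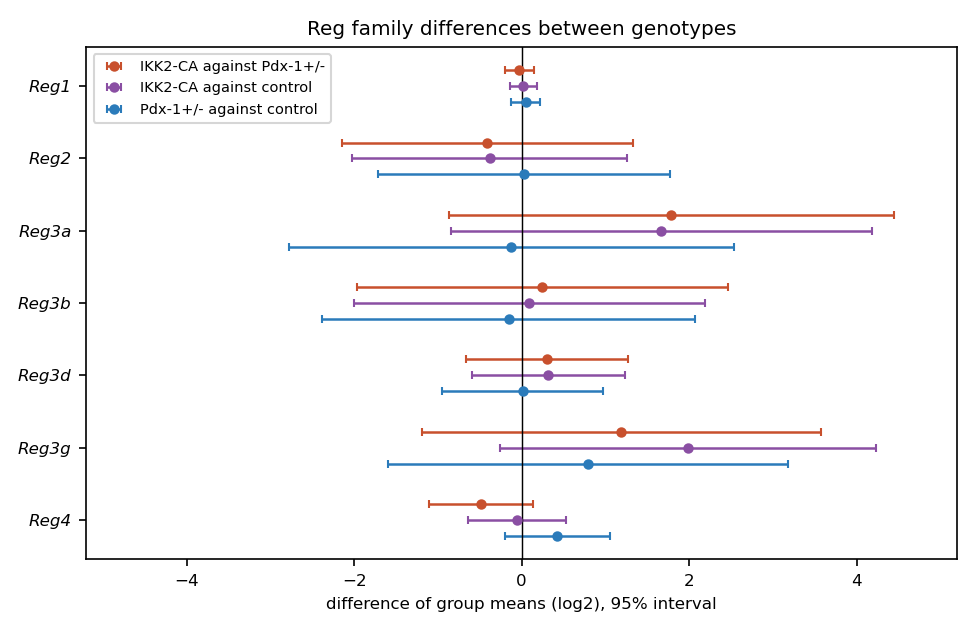
Points are differences of group means (log2) for each Reg gene in the 3 comparisons, and bars are 95% intervals from limma. All 21 intervals include 0, and those of Reg3a and Reg3g reach up to 4.45 and 4.23.

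Acinar genes were measured at high levels on all arrays. Of 44 listed acinar genes, among them trypsin, lipase, amylase and PTF1 genes, 33 were measured, and 0 of 33 passed in any of the 3 comparisons (limma; 0 with an unadjusted p under 0.05 in each). By direction alone, 30 of the 33 were higher in IKK2-CA against control islets and 3 lower (median log2 0.07). In Pdx-1+/- against control islets 31 were higher and 2 lower (median 0.08). In IKK2-CA against Pdx-1+/- islets 10 of these genes were higher and 23 lower (median −0.02). The log2 of their summed signal was 17.67 to 17.83 on control, 17.72 to 17.89 on Pdx-1+/- and 17.58 to 17.94 on IKK2-CA arrays. An acinar score, the mean deviation of these genes from their average over the arrays, was lowest on IKK2-CA array 5 (−0.497) and highest on IKK2-CA array 3 (0.32). Their mean signal per array was 11.47 to 12.28, and whether compression near the top of the scale narrows the acinar score was not tested. Reg1 had an r of 0.878 with it over the 14 arrays (permutation p = 6e-05, adjusted p = 0.000672) and a rho of 0.851 (permutation p = 0.00027, adjusted p = 0.00289), with r at 0.716 without the 2 farthest arrays. For Reg3d r was 0.684 (permutation p = 0.00717, adjusted p = 0.0309) and rho 0.565 (permutation p = 0.0381, adjusted p = 0.125), but r was 0.338 without the 2 farthest arrays, so the relation rests on those. For Reg2 (r 0.621, rho 0.495), Reg3b (r 0.565, rho 0.481) and Reg3g (r 0.45, rho 0.591) the relation did not pass after adjustment (permutation, adjusted p = 0.0567, 0.109 and 0.239 for r, and 0.218, 0.231 and 0.106 for rho). IKK2-CA array 3, of the highest acinar score, was also the highest array for Reg3b and Reg2. IKK2-CA array 5, of the lowest score, was the lowest array for Reg2. Pdx-1+/- array 1 was among the highest arrays for Reg3b and Reg2 at an acinar score of −0.147, below that of Pdx-1+/- array 4 (0.315). With the acinar score as a covariate 0 of 7 Reg genes passed in each comparison, and Reg3a differed by log2 1.93 between IKK2-CA and Pdx-1+/- islets and by 1.39 between IKK2-CA and control islets. Fewer acinar cells and less RNA per cell cannot be told apart in these bulk samples.

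Reg4 was highest on the array with the most intestinal signal. The mean deviation of 26 measured intestinal genes (of 28 listed) was 2.36 on Pdx-1+/- array 4 and 1.09 on control array 3, and −0.37 to −0.195 on the other arrays. The log2 of their summed signal was 11.97 to 12.70 on control, 12.06 to 13.70 on Pdx-1+/- and 11.72 to 12.05 on IKK2-CA arrays, and 1 of the 26, the fructose transporter gene Slc2a5, fell in IKK2-CA against control islets (1.95-fold, limma adjusted p = 0.0364), where 1.56% of all genes fell. That call was lost in 12 of 25 alternatives, among them the replicate block, the fit without the 3 arrays and the fits without control array 1, 3, 4 or 5, Pdx-1+/- array 2 or 3, or IKK2-CA array 1, 3 or 5. Reg4 had an r of 0.921 with it (permutation p = 0.00053, adjusted p = 0.00371) and a rho of 0.556 (permutation p = 0.0417, adjusted p = 0.13). Without those 2 arrays r was 0.403, so the relation rests on them. The other Reg genes, Reg3a apart, had r between −0.13 and 0.0744 and rho between −0.327 and −0.0989 with the intestinal score (permutation, adjusted p = 0.613 to 0.996), and Reg3b and Reg3g on Pdx-1+/- array 4 (10.85 and 8.38) lay within the range of their group. Of 21 measured myeloid genes 4 rose in IKK2-CA against control islets by limma, Itgax (4.46-fold, adjusted p = 0.00395), Mmp12 (4.55-fold, adjusted p = 0.00886), Clec7a (3.14-fold, adjusted p = 0.0111) and Ccr2 (3.28-fold, adjusted p = 0.0251), where 0.682% of all genes rose. Against Pdx-1+/- islets 2 of 21 rose by limma, Itgax (4.64-fold, adjusted p = 0.0224) and Mmp12 (4.92-fold, adjusted p = 0.0424), where 0.0752% of all genes did. Over 25 alternatives the count was 3 to 6 against control and 0 to 5 against Pdx-1+/- islets, with 0 when any of the 4 Pdx-1+/- arrays was left out. By direction alone, 16 of the 21 were higher and 5 lower against control, and 13 higher and 8 lower against Pdx-1+/- islets. The log2 of the myeloid sum was 12.67 to 13.21 on control, 12.84 to 13.24 on Pdx-1+/- and 12.83 to 14.15 on IKK2-CA arrays. It was highest on IKK2-CA array 5 (mean deviation 1.15), where Reg2, Reg3b and Reg3d were low. With the mean deviation of the myeloid genes, Reg genes other than Reg3a had r from −0.457 (Reg1) to 0.091 (Reg3g). The rho ran from −0.209 to 0.204. No relation passed (permutation, adjusted p = 0.238 to 0.914 for r and 0.775 to 0.841 for rho). Whether the myeloid genes had a part in the Reg values was not tested further.

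**Figure D5:**
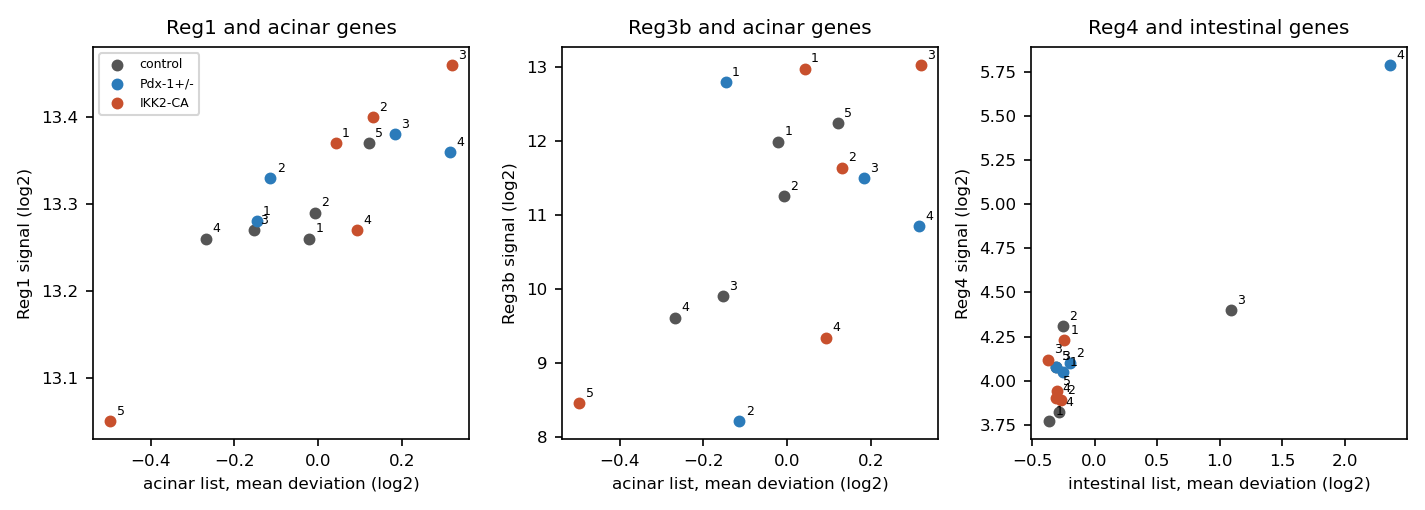
Points are arrays, labelled by number and coloured by genotype, with the mean deviation of a marker list (log2) on the horizontal axis and the signal of a Reg gene (log2) on the vertical axis. Reg1 is higher at higher acinar scores (r 0.878), Reg3b spreads from 8.21 to 13.03 at acinar scores between −0.497 and 0.32, and Reg4 stands out on Pdx-1+/- array 4 (5.79).

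Lrg1 and Itih4, genes of acute-phase plasma proteins, had the array profiles closest to those of Reg3a and Reg3g. Closeness was the root mean square difference of the signals over the 14 arrays, each gene centred on its own mean, among all genes outside the family. For Reg3a and Reg3g the nearest was Lrg1, an acute-phase glycoprotein (1.23 and 0.90 log2), followed by Itih4, an acute-phase plasma protein (1.47 and 1.27), and Ptger3, the prostaglandin E receptor EP3 (1.59 and 1.37). For comparison, Reg3a and Reg3g were 0.73 apart, and Reg3a varied about its own mean by 2.06. Lrg1 read 7.82, 6.71, 6.20, 6.13 and 7.85 on control arrays 1 to 5, 9.64, 6.07, 7.26 and 7.77 on Pdx-1+/- arrays 1 to 4, and 10.73, 7.41, 9.40, 6.97 and 8.60 on IKK2-CA arrays 1 to 5. It was high on Pdx-1+/- array 1 and IKK2-CA arrays 1 and 3, as Reg3a was, and differed from it on IKK2-CA array 5, which was low for Reg3a. Reg3d was closest to Ptger3 (0.28), Smim38 (0.36) and Prss8, the membrane protease prostasin (0.38). Reg2 was closest to Tmed11 (0.79), Prss8 (0.83) and Slc38a3, a glutamine transporter (0.85), all farther than Reg3b (0.63). Reg3b was closest to Prss8, Ptger3 and Slc38a3 (1.14 each). Reg4 was closest to Eps8l3 (0.11), Cyp4f14 (0.12) and G6pc (0.13), all of which were highest on Pdx-1+/- array 4.

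Genes of cytokine signalling were set beside the Reg genes, and not all of them are known to act upstream of Reg genes. Of 44 listed genes of gp130, interleukin-22 and interleukin-17 signalling 40 were measured. In IKK2-CA against Pdx-1+/- islets 0 of 40 passed (limma; 5 had an unadjusted p under 0.05), with a median log2 difference of 0.07 against −0.01 for all genes. The widest differences were of Il6, a ligand of gp130 (6.99 ± 0.54 (SD, n = 4) to 7.77 ± 0.34 (SD, n = 5), log2 0.78, SE 0.41, limma adjusted p = 0.779), and of Osm, another such ligand (log2 0.72, limma adjusted p = 0.56). In IKK2-CA against control islets Il10ra, the interleukin-10 receptor of leukocytes, rose 1.87-fold (log2 0.90, SE 0.21, limma adjusted p = 0.0375), and Cntfr, the receptor of ciliary neurotrophic factor, fell 2.04-fold (log2 −1.03, SE 0.23, limma adjusted p = 0.0336). The other 38 genes, all 12 ligands included, did not pass. Of all genes 2.25% passed, and the count of 2 in 40 ranged from 0 to 5 over 25 alternatives. It was 0 without control array 1, 3, 4 or 5 or IKK2-CA array 2, and 1 with the replicate block. In Pdx-1+/- against control islets 0 of 40 passed (limma; 2 had an unadjusted p under 0.05), with Cntfr at log2 −1.07 (limma adjusted p = 0.198). None of the 6 Reg genes other than Reg3a related to the mean of these genes over the arrays, with r from −0.547 for Reg1 to 0.0016 for Reg3g (permutation, adjusted p = 0.127 to 0.996) and rho from −0.266 to 0.0813 (permutation, adjusted p = 0.77 to 1).

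Extl3, a glycosyltransferase reported as a receptor of Reg proteins, read 8.94 ± 0.27 (SD, n = 5) in control, 9.25 ± 0.42 (SD, n = 4) in Pdx-1+/- and 9.21 ± 0.20 (SD, n = 5) in IKK2-CA islets. None of the 5 exostosin genes passed in any comparison (limma; 0 with an unadjusted p under 0.05). Of 20 measured genes of injured acinar cells, Cd44, an adhesion receptor, was the 1 that rose in IKK2-CA against control islets (2.05-fold, log2 1.03, SE 0.25, limma adjusted p = 0.0463; 0.682% of all genes rose), a call lost in 13 of 25 alternatives, among them the fits without the 3 arrays, without any single control array, without Pdx-1+/- array 1, 2 or 3, or without IKK2-CA array 2 or 3. In that list 0 passed in the other comparisons (limma; 2 and 1 with an unadjusted p under 0.05). Of 15 duct genes Tspan8, a tetraspanin, rose in IKK2-CA against control islets (1.45-fold, log2 0.54, SE 0.13, limma adjusted p = 0.0442; 0.682% of all genes rose). That call was also lost in 13 of 25, among them the replicate block, the fit without the 3 arrays, and the fits without any single control array, without Pdx-1+/- array 1 or 3, or without IKK2-CA array 1, 3, 4 or 5. Tspan8 read 6.33 in control, 7.03 in Pdx-1+/- and 6.87 in IKK2-CA islets. Its difference in Pdx-1+/- against control islets was thus the larger (log2 0.69, SE 0.14, limma adjusted p = 0.0957), though it did not pass.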

How the data were processed

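The deposited table holds log2 signals per transcript cluster that the authors made with the robust multichip average in Affymetrix Expression Console, per the labels' design text and the submitters' processing notes. Software version and settings were not stated there, and the log2 base is read from the range of the deposited values. Of 35556 clusters 21789 have 1 gene symbol in the platform annotation, and those with several (1621) or none (12146) were left out. Where a gene had several clusters (999 genes), the one with the highest mean over arrays stands for it, for 19938 genes in all. Values were neither filtered nor normalized again.

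Genes were tested with limma 3.58.1 under R 4.3.3. A shared fit took the 3 group means from all 14 arrays (11 residual and 3.46 prior degrees of freedom), with Benjamini-Hochberg adjustment over all genes and a threshold of 0.05. Permutation tests ran in Python 3.11.15 with numpy 2.4.6. The fit and the permutation test were tested on simulated data. No arrays were identical (Pearson r across genes 0.948 to 0.993). Same-number arrays of different groups had deviations from group means that correlated at −0.391 to 0.356 over genes. Arrays of unlike number were not set beside them, so this cannot settle if the numbers pair samples. The number of arrays limits the precision. The named genes were the 7 members, Pdx1 and Ikbkb, Sis, Fabp2, Adipoq and Plin1, up to 4 called genes per list and comparison (otherwise the 2 with the widest difference), and the 3 genes nearest each member that spans at least 2 log2. Ctrc and the hormone genes are outside that rule and were chosen after their values were seen. Members, lists and motifs were chosen with earlier results of these data known. Alternatives covered normalization (median centring per array, quantile), the variance model (trended or robust eBayes, array weights, only the compared groups), gene choice (lowest 30% left out, clusters averaged), covariates (acinar or intestinal score, replicate number as a block) and arrays left out. The labels give no batch. Those for the correlations and the spread within groups were chosen after seeing the data.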

Additional observations from a re-analysis of the deposited data

Results flagged for a closer look

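Dixon's test at the 5% level was run on 150 groups of values, 3 for each of 50 genes or lists of the text, and 24 values, on 7 arrays, lay far from the rest of their group. Chance flags about 1 group in 20, but the flags here cannot be compared with that rate. The genes and lists overlap. Sis, Fabp2, Adipoq and Plin1 were chosen to name arrays that stand apart, and Eps8l3, Cyp4f14 and G6pc for their likeness to Reg4. Among the Reg genes, control array 5 was high for Reg3a (9.16 against 5.70 to 6.59 on the other control arrays) and for Reg1 (13.37 against 13.26 to 13.29). Pdx-1+/- array 4 was high for Reg4 (5.79 against 4.05 to 4.10).

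The same Pdx-1+/- array 4 was high for the intestinal list (mean deviation 2.36), Sis (9.16), Fabp2, an enterocyte fatty-acid binding protein (9.09), Eps8l3 (6.82), G6pc (6.34) and Cyp4f14 (6.24). Control array 3 was high for the intestinal list (1.09), Sis (6.05), Fabp2 (6.58) and Cyp4f14 (5.22). IKK2-CA array 5 was high for the adipocyte list (1.97), Adipoq (10.60), Plin1, which coats lipid droplets (9.34), the list of antimicrobial genes (0.377), Lcn2, an iron-binding antibacterial protein (10.56), Lyz1, a lysozyme (10.75), Osm (7.91) and Itgax (9.36). Smaller departures were those of Pdx-1+/- array 3 for the antimicrobial list (−0.136), Pdx-1+/- array 2 for the exostosin genes (−0.115) and control array 2 for Il10ra (7.23).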

How the results depend on the processing

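No Reg gene passed in any comparison under the 25 alternatives, and the lowest adjusted p of a member was 0.245 (Reg3g, IKK2-CA against control). Of 21 differences between groups, 8 kept their direction under every alternative run. In IKK2-CA against control Reg3g ranged from 1.24 to 2.55 and Reg3a from 0.97 to 2.33, and in IKK2-CA against Pdx-1+/- from 0.402 to 2.01 and from 1.09 to 2.79. Fitting the replicate number as a block (replicate block) changed no call of a Reg gene and turned Reg2 (−0.143) and Reg3d (−0.111) in Pdx-1+/- against control. In IKK2-CA against control it took the calls of the gp130 list from 2 to 1, of the duct and intestinal lists from 1 to 0, and of the myeloid list from 4 to 5, and in IKK2-CA against Pdx-1+/- the myeloid calls from 2 to 1. It also gave 1 antimicrobial gene in IKK2-CA against control, where the alternatives gave 0 to 3. Reg4 had no value with the lowest 30% of genes left out.

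Other reversals were of differences that had not passed, and their cause was not tested. In IKK2-CA against Pdx-1+/-, array weights gave Reg1 0.0249 and Reg2 0.243, and leaving out the 3 arrays with genes of other tissues gave 0.0488 and 0.224. In IKK2-CA against control, quantile normalization gave Reg1 −0.011, the acinar score as covariate Reg1 −0.0112 and Reg3b −0.277, array weights Reg2 0.127, the intestinal score Reg4 0.0979, and leaving out the 3 arrays Reg2 0.118 and Reg4 0.0413. In Pdx-1+/- against control, quantile normalization gave Reg1 −0.00636 and Reg3d −0.0113, the acinar score Reg1 −0.00173, Reg2 −0.448 and Reg3d −0.275, array weights Reg2 −0.116 and Reg3d −0.144, the intestinal score Reg3a 0.00889 and Reg3d −0.0108, and leaving out the 3 arrays Reg2 −0.106 and Reg3d −0.0757. Leaving out each array in turn, IKK2-CA against Pdx-1+/- ranged from −0.0628 to 0.0402 for Reg1, −0.919 to 0.138 for Reg2 and −0.629 to 0.906 for Reg3b. IKK2-CA against control ranged from −0.0161 to 0.0869 for Reg1, −0.795 to 0.17 for Reg2, −0.392 to 0.751 for Reg3b and −0.136 to 0.022 for Reg4. Pdx-1+/- against control ranged from −0.384 to 0.541 for Reg2, −1.12 to 0.484 for Reg3a, −0.808 to 0.721 for Reg3b, −0.179 to 0.179 for Reg3d and −0.0022 to 0.58 for Reg4.

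Under 17 alternatives for spread and correlations, Reg3a kept the widest spread within groups, Reg3g ranked 2 to 7 and Reg3b 3 to 8. The r of Reg2 and Reg3b was 0.912 to 0.941, of Reg1 and the acinar score 0.755 to 0.914. The r of Reg2 and of Reg3d with the acinar score lost an unadjusted p under 0.05 without IKK2-CA array 5 (0.423 and 0.502). High signals near the top of the scale (Reg1) and low ones near its floor (Reg4) limit what can be seen of these genes.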

Other observations

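Lcn2 and Lyz1, which encode other antibacterial proteins, were highest on IKK2-CA array 5, where several Reg genes were low. Lcn2 read 8.53 ± 1.15 (SD, n = 5) in IKK2-CA, 7.09 ± 0.65 (SD, n = 4) in Pdx-1+/- and 7.13 ± 0.47 (SD, n = 5) in control islets, a log2 difference of 1.40 against control (SE 0.46, limma adjusted p = 0.131). Lyz1 read 9.19 ± 0.91 (SD, n = 5) in IKK2-CA and 7.77 ± 0.47 (SD, n = 5) in control islets, a log2 difference of 1.42 (SE 0.35, limma adjusted p = 0.0516). IKK2-CA array 5 was the lowest array for Reg1, Reg2 and Reg3d, and it was also set apart by adipocyte genes (Adipoq 10.6). The myeloid list, which holds Lyz1 as well, was highest on that array (mean deviation 1.15). On IKK2-CA arrays 1 to 4 Lcn2 read 7.91, 7.96, 7.87 and 8.37, while several Reg genes were high on arrays 1 and 3 and low on array 4. Of 24 measured antimicrobial genes 0 passed in any comparison (limma). By direction, 12 were higher and 12 lower in IKK2-CA against Pdx-1+/- islets, and 15 higher and 9 lower against control islets. An unadjusted p under 0.05 was seen for 4 in the comparison of IKK2-CA with Pdx-1+/-, for 5 in that with control, and for 0 between Pdx-1+/- and control islets.

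Ctrc, a chymotrypsin that breaks down trypsin, formed 2 sets of arrays that did not follow genotype. It read 12.48 to 12.93 on control arrays 2, 4 and 5, Pdx-1+/- arrays 2 and 3 and IKK2-CA arrays 3 and 4, and 8.83 to 10.67 on the other 7 arrays. Its spread within groups (1.67) ranked at 6 of all genes, and its sets were not those of Reg3a, since Pdx-1+/- array 1 and IKK2-CA array 1 were high for Reg3a and low for Ctrc (9.63 and 10.18).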
